A study of Mus musculus with 18 samples.

Results

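The immediate early and heat shock genes described here are 40 genes chosen by name out of 32285 in the table: 8 genes of AP-1 and related bZIP factors, 9 genes of the EGR, NR4A and KLF families, 10 feedback and early response genes, 4 growth arrest and stress genes and 9 heat shock genes. They were measured in iLS cells that carry CD45.2, which had been sorted by flow cytometry from the bone marrow of C57BL/6 mice. Control cells carried no fusion (labelled Mock in the day 6 descriptions and Cont in those of day 14), BN1 cells carried BRD9-NUTM1, and AFFN1 cells carried AFF1-NUTM1. There were 18 libraries, 3 for each kind of cell at each of the time points day 6 and day 14, numbered 1 to 3 in each group. All groups share the CD45.2 allele and the sort, and the labels used here give neither the vector or promoter that drives a fusion, nor the age of the animals, nor whether a library is a separate culture or animal. The spread between libraries that the p-values measure may thus be technical.

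Immediate early genes are transcribed within minutes of a stimulus without new protein synthesis. Signals through ERK, JNK, p38 and calcium reach factors already bound at their promoters, such as serum response factor with its ternary complex partners and CREB, and many of the products are transcription factors or inhibitors that close the loop. Heat shock genes are driven by HSF1 when unfolded protein draws chaperones away from it; the inducible HSP70 genes are almost silent in unstressed cells, while HSC70, HSP90, HSP60 and HSP10 are made all the time. In lymphoid progenitors immediate early genes respond to receptor and cytokine signals.

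Promoter letters are shown for 3 members whose values are described below, 2 heat shock genes and 1 feedback gene. Windows of 250 bases before to 50 bases after the annotated start were taken from RefSeq (build GRCm38.p6), where 35 of the 40 members matched; Egr1, Egr3, Ier2, Hspa8 and Hsp90aa1 did not. The heat shock element of 3 units (GAANNTTC followed directly by NNGAA), searched on both strands, lay in the windows of Hspd1, Hspe1 and Hsph1 and in 0.603% of all 32851 windows. Its shorter form GAANNTTC, which overlaps the longer one, lay in those 3, in Hspa1a, Hspa1b, Bag3, Jun and Fosl2, and in 7.86% of all windows. The CArG box, the site of serum response factor, lay in the windows of Dusp5, Egr2 and Zfp36 and in 1.63% of all windows, and the CRE TGACGTCA lay in those of Maff and Dusp1 and in 1.79%. The stretch of Hspe1 (chr1:55088053-55088082, plus strand) lies before the RefSeq start of that gene and, on the other strand, of Hspd1, although the longer GENCODE model of Hspd1 covers it. Its capitals mark the overlapping heat shock elements from 89 to 72 bases before the Hspe1 start. That of Hspa1a (chr17:34972157-34972406, minus strand) has the short element in capitals, 104 to 97 bases before the start. In Dusp5 (chr19:53528895-53529108, plus strand) the capitals are 2 adjoining CArG boxes, 82 to 63 bases before the start.
Hspe1: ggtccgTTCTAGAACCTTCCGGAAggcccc
Hspa1a: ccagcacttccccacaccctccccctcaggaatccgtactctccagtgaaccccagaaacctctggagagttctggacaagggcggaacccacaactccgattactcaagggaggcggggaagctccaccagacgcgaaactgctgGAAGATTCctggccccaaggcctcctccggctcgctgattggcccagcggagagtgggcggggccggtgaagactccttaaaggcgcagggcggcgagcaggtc
Dusp5: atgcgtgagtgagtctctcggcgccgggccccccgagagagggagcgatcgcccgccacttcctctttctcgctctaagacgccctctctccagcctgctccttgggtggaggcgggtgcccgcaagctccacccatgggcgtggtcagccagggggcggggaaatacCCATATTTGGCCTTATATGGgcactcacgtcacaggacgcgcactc
A match of letters is a description and not a measured binding site. The windows of Hspa1a and Hspa1b, which encode almost identical proteins, share 296 of 300 bases. As near-identical copies these 2 genes may share reads, and how the counting divided them was not tested.

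In units of 1000000, the libraries held 14.2 to 17.7 counts on day 6 and 17.8 to 18.4 on day 14. Levels are given as counts per 1000000 counts (CPM), scaled by TMM over all 18 libraries and listed in the order of the library numbers. All 10 B-lineage progenitor markers were above 0 in every library, with a summed level of 5872 to 13631 CPM, and the pan-leukocyte gene Ptprc stood at 185 to 407 CPM. Mitochondrial counts made up 2.26 to 2.66% on day 6 and 5.25 to 9.32% on day 14. The descriptions follow another naming scheme on each day, so day and experiment cannot be told apart.

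Of the 40 members, 38 passed the filter on low counts on day 6 and 37 on day 14. Nr4a3 and Bag3 failed it on both days, and Egr2 failed it on day 14. Per kilobase of exon, chaperone genes led the day 6 control libraries, with a mean of 584 CPM per kilobase for Hspa8, 230 for Hsp90aa1 and 164 for Hspd1, followed by Dusp5 at 149 and Jund at 101. The lowest members on that scale were Nr4a3 at 0.0174, Bag3 at 0.0417 and Egr2 at 0.151 CPM per kilobase. On day 14 the control order began with Hspa8 at 903, Hsp90aa1 at 227, Jund at 169, Dusp5 at 138 and Hspd1 at 117 CPM per kilobase.

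Much of the variation of these genes on day 6 lay between libraries of the same group. Control library 3 was the highest of its group for 30 of the 38 tested members, BN1 library 3 for 33 and AFFN1 library 3 for 20. The median log2 ratio of library 3 to the mean of the other 2 was 0.65 in control, 1.07 in BN1 and 0.07 in AFFN1. Over all genes tested across the days, the same medians lay between -0.03 and 0.01. That the control and BN1 libraries numbered 3 run high was known before the comparisons were made, so these ratios are a description.

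In the AP-1 role, BN1 library 3 was the highest of its group for 8 of 8 genes, control library 3 for 8 and AFFN1 library 3 for 3. Fos, which pairs with JUN proteins to form AP-1, had 28.2, 50.9 and 51.5 CPM in control, 19.6, 25.4 and 124 CPM in BN1 and 28.3, 18.4 and 22.2 CPM in AFFN1. The control libraries 2 and 3 were alike in Fos, and the single high value was that of BN1 library 3. Fosb, its close relative, read 17.7, 43.6 and 74.3 CPM in control, 12.4, 23.4 and 357 CPM in BN1 and 13.0, 4.84 and 22.4 CPM in AFFN1. BN1 library 3 was 19.9-fold above the mean of the other 2 BN1 libraries in Fosb. Atf3, a stress-induced repressor of the same superfamily, stood at 2.35, 6.10 and 25.9 CPM in control, 2.55, 2.75 and 49.6 CPM in BN1 and 2.48, 3.21 and 4.93 CPM in AFFN1, so that both high libraries were those numbered 3. Fosb and Atf3 were chosen for naming after their values were seen.

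The EGR, NR4A and KLF genes followed the same order, with library 3 the highest of its group for 8 of 8 tested genes in control, 8 in BN1 and 6 in AFFN1. Egr1, a zinc finger factor induced through ERK, had 10.4, 13.3 and 33.1 CPM in control, 13.8, 8.67 and 58.1 CPM in BN1 and 10.3, 10.8 and 10.8 CPM in AFFN1. Apart from control 3 and BN1 3, its libraries lay within 8.67 to 13.8 CPM. Nr4a1, an orphan nuclear receptor induced by antigen receptor signals, gave 39.7, 38.0 and 171 CPM in control, 42.6, 32.5 and 105 CPM in BN1 and 17.5, 14.7 and 19.6 CPM in AFFN1. For Nr4a1 the control library 3 was above BN1 library 3, and all 3 AFFN1 libraries lay below every other. Klf2, a quiescence and trafficking factor of lymphocytes, ran 9.79, 14.8 and 20.02 CPM in control, 1.99, 6.31 and 52.8 CPM in BN1 and 11.1, 10.2 and 12.6 CPM in AFFN1. Klf4, which restrains lymphoid proliferation, ran 26.0, 33.1 and 87.9 CPM, 19.4, 29.9 and 180 CPM and 15.7, 14.5 and 16.1 CPM in the same order. In both KLF genes BN1 library 3 was far above the rest, at 12.7-fold its group's other libraries for Klf2 and 7.31-fold for Klf4.

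Among the feedback genes the libraries numbered 3 were highest for 9 of 10 genes in control, 9 in BN1 and 3 in AFFN1. Dusp1, a phosphatase that switches off p38 and JNK, had 13.1, 14.9 and 26.9 CPM in control, 12.0, 16.2 and 68.4 CPM in BN1 and 11.1, 10.0 and 10.9 CPM in AFFN1. Dusp1 overlapped between BN1 and control in libraries 1 and 2, and the 2 libraries numbered 3 lay above all of them. Of the inducible HSP70 genes, Hspa1a had the steepest ratio of any member in both groups. Hspa1a read 1.62, 2.51 and 29.0 CPM in control, 1.33, 0.861 and 43.9 CPM in BN1 and 1.24, 0.790 and 1.97 CPM in AFFN1, and Hspa1b read 9.85, 16.3 and 68.7 CPM, 6.12, 4.71 and 83.4 CPM and 9.73, 10.5 and 11.7 CPM. BN1 library 3 was 40.2-fold above the other 2 of its group for Hspa1a and control library 3 was 14.0-fold above its own, against 15.4-fold and 5.25-fold for Hspa1b.

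The more abundant chaperones showed another order. Hspa8, which encodes HSC70, had 2621, 2950 and 1963 CPM in control, 2007, 2120 and 2216 CPM in BN1 and 2849, 2851 and 2901 CPM in AFFN1. Control library 3 was the lowest of its group for Hspa8, Hsph1, Hsp90aa1, Hspd1 and Hspe1, while it was the highest for Hspa1a and Hspa1b. BN1 library 3 was the highest of its group for 5 of the 8 tested heat shock genes, Hspa8 among them, with BN1 values of Hspa8 that lay close together. Of 28 other tested chaperone and heat shock factor genes, control library 3 was the lowest of its group for 23 and AFFN1 library 3 the highest for 24. Of 32 other tested early response genes, library 3 was the highest for 27 in control, 29 in BN1 and 11 in AFFN1.

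**Figure D1:**
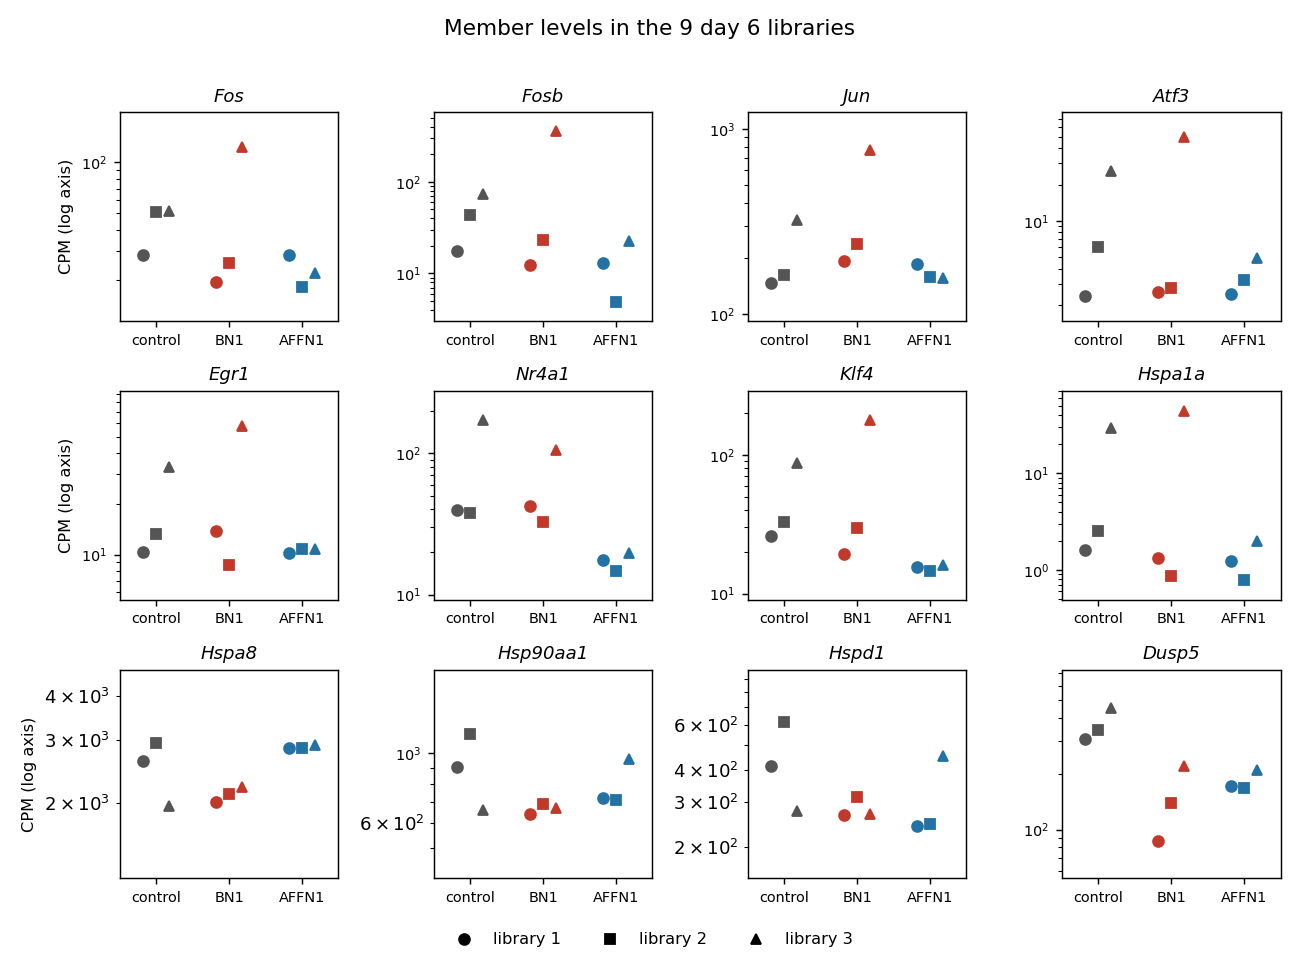
Levels of 12 members in each day 6 library, in CPM on a log axis, with a circle, square and triangle for libraries 1, 2 and 3 of each group. The triangles of control and BN1 stand above the other symbols for Fosb, Atf3 and Hspa1a (29.0 and 43.9 CPM), while Hspa8 spans 1963 to 2950 CPM over all 9 libraries.

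**Figure D2:**
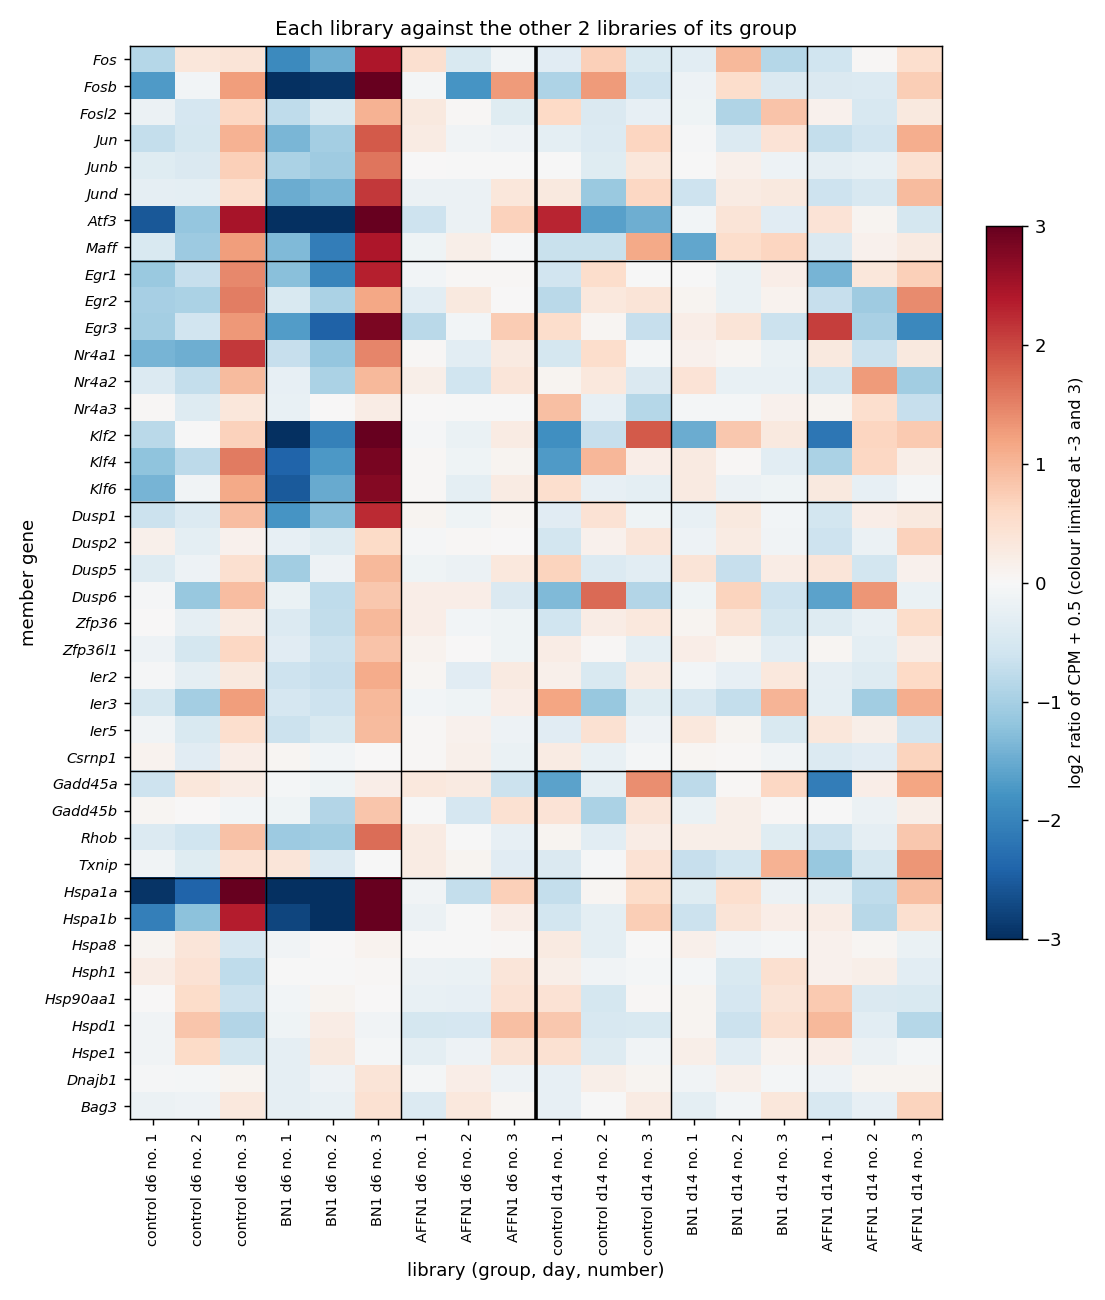
Each of the 40 members (rows) in each of the 18 libraries (columns) as the log2 ratio of its CPM + 0.5 to the mean of the other 2 libraries of its group + 0.5, with colour limited at -3 and 3. The columns control 3 and BN1 3 of day 6 are red from Fos down to Hspa1b in most rows (medians 0.65 and 1.07 over the tested members), and no day 14 column is as uniform, the highest being AFFN1 3 at 0.29.

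Myeloid and stromal markers were also high in these libraries. The sum of T and NK cell markers was highest in library 3 in control but not in BN1, and erythroid markers followed another order. The summed level of 10 myeloid markers was 114, 79.3 and 194 CPM in control, 86.2, 86.7 and 173 CPM in BN1 and 106, 117 and 100.5 CPM in AFFN1, with all 5 tested markers highest in control library 3 and 4 of 5 highest in BN1 library 3. The neutrophil and progenitor gene Mpo was at 0 in all 9 libraries, and Lyz2, the most abundant myeloid marker, had 77.8, 49.8 and 133 CPM, 48.1, 39.0 and 131 CPM and 55.8, 64.5 and 62.4 CPM. The 10 stromal markers summed to 52.2, 27.2 and 99.8 CPM in control, 18.9, 12.9 and 82.3 CPM in BN1 and 30.4, 121 and 39.1 CPM in AFFN1. The highest stromal sum was that of AFFN1 library 2. The T and NK cell markers summed to 7.50, 4.18 and 10.8 CPM in control and 12.0, 13.0 and 8.06 CPM in BN1, where library 3 was the highest for 0 of 4 tested markers and the lowest for 3. Erythroid and megakaryocyte markers were higher in all BN1 libraries, at 29.0, 30.5 and 29.4 CPM against 2.69, 2.96 and 2.70 CPM in control and 5.60, 4.16 and 5.42 CPM in AFFN1, and stood no higher in the libraries numbered 3. In bulk RNA, fewer cells of a type and less RNA per cell cannot be told apart. The part of other cells in the high values of the libraries numbered 3, and that of erythroid cells in the BN1 values, was not tested, and each comparison on day 6 is given below with all 9 libraries and with the 6 numbered 1 and 2.

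The first comparison asks how these genes differ in cells with BRD9-NUTM1 after 6 days. With all libraries, 2 of 38 tested members were lower in BN1 than in control and none was higher, beside 17.4% of all genes called by edgeR's quasi-likelihood test at a Benjamini-Hochberg adjusted p under 0.05. The 2 were Dusp5 and Gadd45b. Without the libraries numbered 3, 16 members were called, 6 higher and 10 lower, beside 32.2% of all genes. The 10 lower ones included 6 of the 8 tested heat shock genes, and no heat shock gene was called higher. The median log2 fold change of the members was 0.39 with all libraries and -0.25 without those numbered 3, against -0.02 over all genes in the fit of all libraries. The median over all genes is not given here for the fit without those numbered 3. It is also not given beside the medians of members and lists further below. With 1 library left out at a time, 9 members were called without control 3, 3 without BN1 3, 1 each without control 1, BN1 1 or BN1 2, and 0 without control 2. Over all genes, 1141 to 3495 were called in these fits.

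Dusp5, a nuclear phosphatase that inactivates ERK (chromosome 19, 53529109 to 53542431), had 308, 344 and 456 CPM in control, 87.1, 139 and 222 CPM in BN1 and 171, 168 and 210 CPM in AFFN1. Every BN1 and AFFN1 library lay below every control library, and library 3 was the highest in each group. The log2 fold change of BN1 against control was -1.32 ± 0.30 (SE, adjusted p = 0.0167, edgeR) with all libraries and -1.54 ± 0.20 (adjusted p = 0.00143) without those numbered 3. With 1 library left out at a time the adjusted p rose to 0.0559 without control 2 and to 0.0513 without BN1 2. An antisense gene overlaps Dusp5 and the strand setting of the counting is not given in the sources used here, so the reads of the 2 cannot be told apart. The antisense gene was given 678 reads over all 18 libraries, against 8036 to 19973 reads for Dusp5 in each group. Antisense genes also overlap other members, among them Jund (1813 reads) and Txnip (220 reads).

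Gadd45b, a stress sensor that activates p38 and JNK, read 11.1, 10.9 and 10.4 CPM in control, 5.46, 3.56 and 8.45 CPM in BN1 and 9.20, 7.16 and 11.4 CPM in AFFN1. The control libraries lay close together and above every BN1 library. Of the 38 tested members, 1 lay wholly higher and 2 wholly lower in BN1 than in control. Over all genes tested, 33.6% had groups that did not overlap in this comparison. The log2 fold change was -0.91 ± 0.27 (adjusted p = 0.0462, edgeR) with all libraries and -1.29 ± 0.22 (adjusted p = 0.00251) without those numbered 3. Leaving out control 1, 2 or 3 gave 0.129, 0.109 or 0.0502, and leaving out BN1 1 or 2 gave 0.150 or 0.102. Its relative Gadd45a, at 2.18, 3.73 and 3.50 CPM in control and 3.21, 3.10 and 3.69 CPM in BN1, overlapped between the groups.

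The heat shock members called lower in BN1 without the libraries numbered 3 were Hspd1, Hspe1, Hsp90aa1, Hspa8, Hsph1 and Hspa1b. Hspd1, the mitochondrial HSP60 (chromosome 1, 55077835 to 55088243), had 414, 611 and 277 CPM in control and 266, 315 and 270 CPM in BN1, so that control library 3 fell among the BN1 libraries. Its log2 fold change was -0.83 ± 0.17 (adjusted p = 0.00809) without the libraries numbered 3 and -0.63 ± 0.31 (adjusted p = 0.197) with them. Hspe1, its HSP10 partner (chromosome 1, 55088132 to 55091307), read 117, 157 and 94.3 CPM in control, 74.8, 96.7 and 82.4 CPM in BN1 and 88.9, 95.2 and 121 CPM in AFFN1. Its log2 fold change was -0.68 (adjusted p = 0.0119) without the libraries numbered 3, against -0.55 ± 0.19 (adjusted p = 0.0714) with them. The 2 genes overlap at their starts, where reads without strand could count for either.

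Hsp90aa1, a cytosolic HSP90, had 906, 1146 and 661 CPM in control, 643, 692 and 669 CPM in BN1 and 722, 712 and 962 CPM in AFFN1. Control libraries 1 and 2 were above all BN1 libraries, and control library 3 was among them. Without the libraries numbered 3 the fall was -0.63 ± 0.12 on the log2 scale (adjusted p = 0.00371), and with them the value was -0.45 ± 0.18 (adjusted p = 0.121). Hspa8 stood at -0.44 ± 0.10 (adjusted p = 0.00738) without the libraries numbered 3, against -0.26 ± 0.13 (adjusted p = 0.192) with them. Hsph1, an HSP110 co-chaperone, fell by 0.42 (adjusted p = 0.0044), and Hspa1b fell by 1.27 ± 0.25 (adjusted p = 0.00499), both without the libraries numbered 3. Hspa1a was not called either way, at 0.45 ± 1.53 (adjusted p = 0.869) with all libraries and -0.90 (adjusted p = 0.122) without those numbered 3.

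Among the AP-1 genes, Jun was the one called higher in BN1 without the libraries numbered 3. Jun, the main partner of FOS (chromosome 4, 95049034 to 95052222), had 147, 163 and 322 CPM in control, 192, 238 and 767 CPM in BN1 and 187, 158 and 156 CPM in AFFN1. Within each number the BN1 library was above the control library, but BN1 1 and 2 lay below control 3. Its log2 fold change was 0.46 ± 0.12 (adjusted p = 0.0178) without the libraries numbered 3 and 0.91 ± 0.54 (adjusted p = 0.292) with them. Jund, a family member that restrains growth, went the other way, at 149, 148 and 211 CPM in control and 114, 122 and 515 CPM in BN1. It was called lower without the libraries numbered 3 (-0.34 ± 0.08, adjusted p = 0.0106), and BN1 library 3 alone turned its value above 0 when all were used. Fos was not called, at 0.35 ± 0.68 (adjusted p = 0.757) with all libraries and -0.82 (adjusted p = 0.14) without those numbered 3, and neither was Fosb with all libraries (1.52 ± 1.25, adjusted p = 0.443).

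Of the zinc finger and nuclear receptor genes, Egr2 was called higher and Klf2 lower without the libraries numbered 3. Egr2, which with Egr3 limits lymphocyte activation, had 2, 2 and 26 reads in control, 29, 18 and 60 reads in BN1 and 2, 6 and 4 reads in AFFN1. Control 1 and 2 held 0.112 and 0.128 CPM against 1.48 and 1.03 CPM in BN1 1 and 2, and control 3 at 1.30 CPM lay between the latter. The log2 fold change was 3.32 ± 0.66 (adjusted p = 0.00506), on few reads. Klf2 changed sign with BN1 library 3: it was -1.59 ± 0.47 (adjusted p = 0.045) without the libraries numbered 3 and 0.43 ± 0.99 (adjusted p = 0.795) with them. Egr1, at 0.48 ± 0.72 (adjusted p = 0.687) with all libraries and -0.08 (adjusted p = 0.816) without those numbered 3, was not called, and Nr4a1, at -0.05 (adjusted p = 0.787) in libraries 1 and 2, was not either.

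The remaining calls in libraries 1 and 2 were higher in BN1. Rhob, a stress-induced small GTPase, read 31.3, 28.6 and 55.7 CPM in control, 51.2, 52.2 and 165 CPM in BN1 and 44.3, 39.2 and 35.1 CPM in AFFN1. Its log2 fold change was 0.78 ± 0.09 (adjusted p = 0.000398) without the libraries numbered 3 and 1.20 ± 0.48 (adjusted p = 0.13) with them. Txnip, which binds thioredoxin and limits glucose uptake (chromosome 3, 96557957 to 96561883), had 126, 111 and 161 CPM in control, 231, 161 and 195 CPM in BN1 and 223, 208 and 169 CPM in AFFN1. All AFFN1 libraries and BN1 1 and 3 lay above the highest control library in Txnip, and BN1 2 was level with it. The log2 fold change of BN1 was 0.72 (adjusted p = 0.00753) without the libraries numbered 3 and 0.55 (adjusted p = 0.0514) with them. Zfp36l1, which degrades AU-rich transcripts, and Csrnp1, a nuclear factor, rose by 0.51 (adjusted p = 0.00646) and 0.36 (adjusted p = 0.0287); these 2 and Jund were chosen for naming after their values were seen. Dusp1 stood at 0.01 (adjusted p = 0.982), and Dusp6, a cytosolic ERK phosphatase, at 0.88 (adjusted p = 0.0552), in libraries 1 and 2.

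Between control and BN1 the libraries of the same number deviated together on day 6, at correlations of 0.185 to 0.373, against -0.400 to 0.137 for different numbers, while the AFFN1 libraries did not follow the numbers. A fit of the 6 control and BN1 libraries alone, with the number as a block, called 12 members, 9 higher and 3 lower, beside 19.8% of all genes. The lower ones were Dusp5 (-1.39 ± 0.14, adjusted p = 0.000433), Gadd45b (-0.95 ± 0.24, adjusted p = 0.0282) and Hspe1 (-0.51 ± 0.11, adjusted p = 0.0126). The higher ones included Dusp6 (0.88 ± 0.10, adjusted p = 0.000689), Zfp36l1 (0.61 ± 0.09, adjusted p = 0.00247), Rhob (1.06 ± 0.16, adjusted p = 0.00384), Jun (0.73 ± 0.16, adjusted p = 0.0171) and Txnip (0.56 ± 0.12, adjusted p = 0.0135). Egr2, Egr3, Maff and Csrnp1 were the other 4. Klf2, Jund and Hspa1b were not called in this fit, and of the heat shock genes Hspd1 (-0.54 ± 0.16, adjusted p = 0.0543) and Hsp90aa1 (-0.40 ± 0.14, adjusted p = 0.0789) missed the threshold. This fit was added, and Maff and Egr3 named, after the data were seen.

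**Figure D3:**
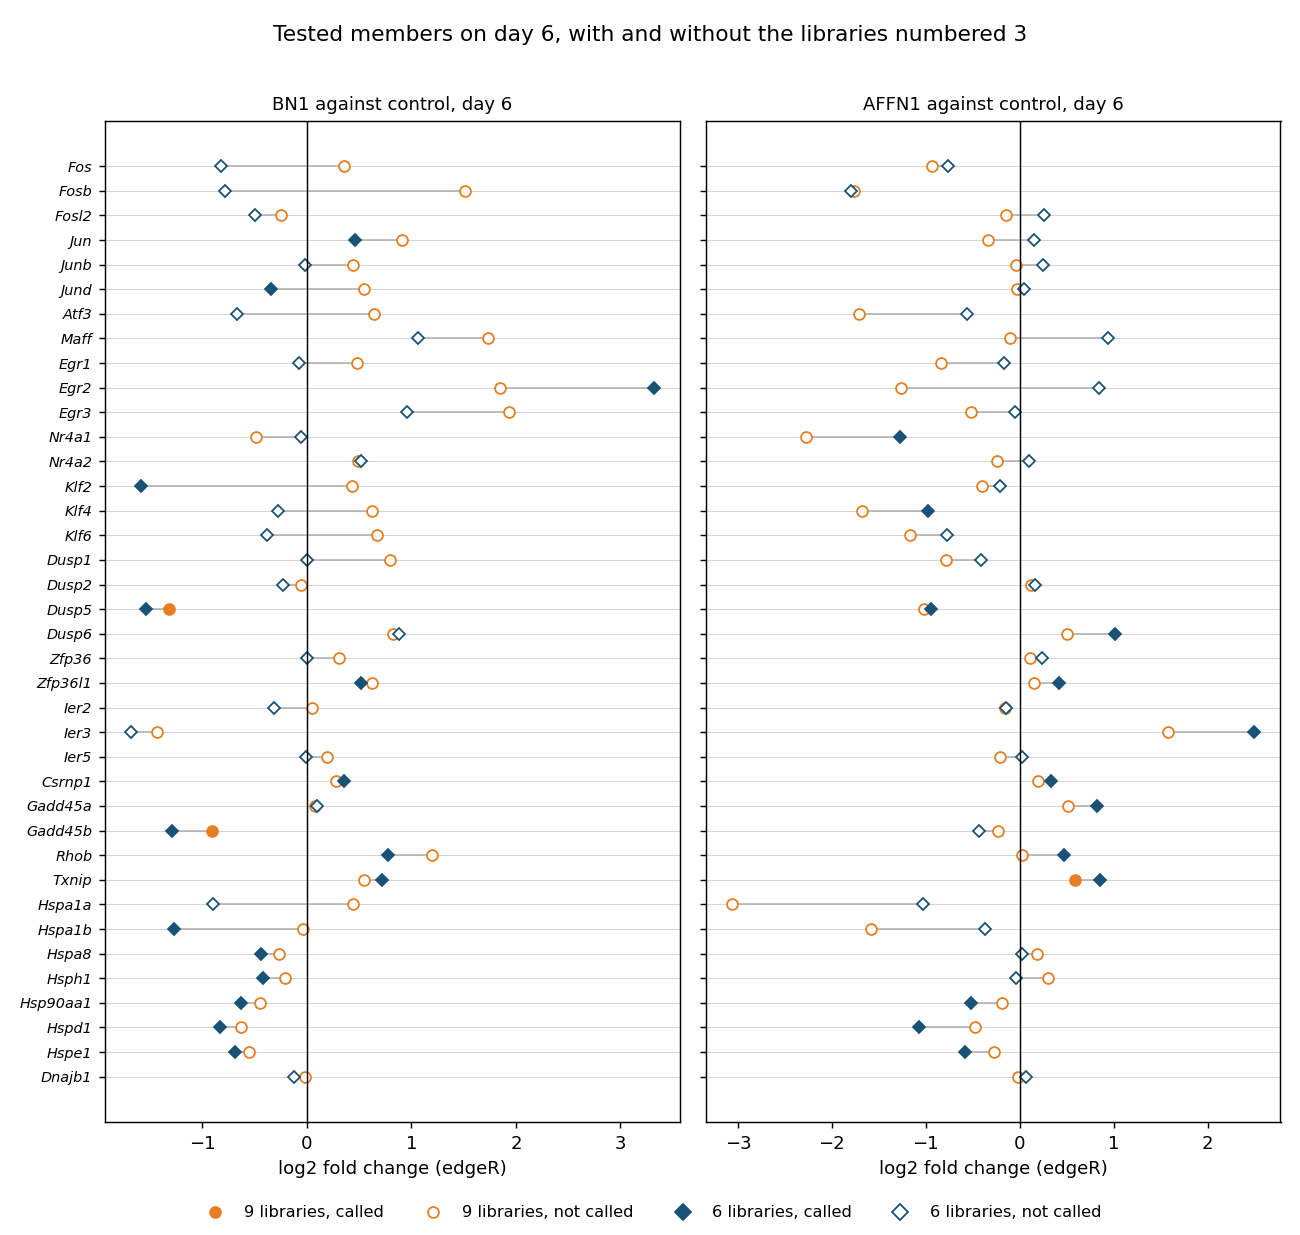
The log2 fold change of each of the 38 tested members on day 6 for BN1 (left) and AFFN1 (right) against control, as orange circles with all 9 libraries and blue diamonds with the 6 numbered 1 and 2, filled where the adjusted p was under 0.05. Filled circles are Dusp5 and Gadd45b on the left and Txnip on the right, against 16 and 13 filled diamonds.

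The second comparison asks the same of AFF1-NUTM1 on day 6. With all libraries, 1 of 38 members, Txnip, was higher in AFFN1 and none was lower, beside 12.7% of all genes called. Without the libraries numbered 3 there were 7 higher and 6 lower, beside 32.1% of all genes. Txnip rose by 0.58 ± 0.17 on the log2 scale (adjusted p = 0.0493, edgeR), and by 0.86 (adjusted p = 0.00345) without the libraries numbered 3. Its call with all libraries was lost without control 1 (0.148), control 2 (0.146), AFFN1 1 (0.187) or AFFN1 2 (0.152), where 0 members were called, and 2 were called without control 3. Over all genes, 739 to 2250 were called with each library left out in turn. The member medians were -0.22 with all libraries and -0.01 without those numbered 3.

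Nr4a1 had the largest fall among the called members of this comparison. Its log2 fold change was -1.28 ± 0.14 (adjusted p = 0.000306) without the libraries numbered 3 and -2.27 ± 0.73 (adjusted p = 0.0879) with them, where control 3 held 171 CPM. Klf4 fell by 0.97 ± 0.20 (adjusted p = 0.00709) and Dusp5 by 0.95 ± 0.19 (adjusted p = 0.00917) in libraries 1 and 2. With all libraries Dusp5 stood at -1.02 ± 0.29 (adjusted p = 0.0539), and for Dusp5, Klf4 and Nr4a1 alike the 3 AFFN1 libraries lay below the 3 control libraries. Over all genes tested, 32.3% had groups that did not overlap in this comparison, against 7 of the 38 members.

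Ier3, an early gene that limits ERK dephosphorylation and apoptosis, was the largest rise. It had 10, 5 and 35 reads in control, 3, 2 and 13 in BN1 and 44, 48 and 55 in AFFN1. All AFFN1 libraries, at 2.59, 2.53 and 3.01 CPM, were above all others. The log2 fold change against control was 2.50 ± 0.42 (adjusted p = 0.00241) without the libraries numbered 3. Dusp6, at 41.9, 23.5 and 62.2 CPM in control, 69.1, 52.0 and 107 CPM in BN1 and 66.0, 66.5 and 49.1 CPM in AFFN1, rose by 1.01 (adjusted p = 0.0363) in AFFN1 in libraries 1 and 2, while with library 3 the groups overlapped. Gadd45a, at 5.25, 5.16 and 3.12 CPM in AFFN1, rose by 0.82 (adjusted p = 0.0456), Rhob by 0.47 (adjusted p = 0.00544), Zfp36l1 by 0.42 (adjusted p = 0.0154) and Csrnp1 by 0.33 (adjusted p = 0.0371), all in libraries 1 and 2. With library 3 the groups of Gadd45a, Rhob, Zfp36l1 and Csrnp1 overlapped too. Rhob, for example, had 31.3, 28.6 and 55.7 CPM in control and 44.3, 39.2 and 35.1 CPM in AFFN1. No member named in this paragraph was called with all libraries.

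Of the 8 tested heat shock genes, 3 were called lower in AFFN1 without the libraries numbered 3. In that fit, Hspd1 fell by 1.08 ± 0.17 (adjusted p = 0.00279), Hspe1 by 0.58 (adjusted p = 0.0229) and Hsp90aa1 by 0.52 (adjusted p = 0.00832), while Hspa8 stood at 0.03 (adjusted p = 0.846). AFFN1 library 3 was the highest of its group for 7 of the 8 tested heat shock genes, at 453 CPM for Hspd1 against 243 and 246 CPM in libraries 1 and 2, and these calls were absent with all 9 libraries. Hspa1a had a log2 fold change of -3.07 ± 1.83 (adjusted p = 0.318) with all libraries, against -1.03 without those numbered 3.

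The third comparison sets the 2 fusions against each other on day 6. With all libraries, 2 of 38 members were called, Egr2 higher and Ier3 lower in BN1, beside 11.2% of all genes. Egr2 was 3.11 ± 0.87 higher on the log2 scale (adjusted p = 0.0472, edgeR), and its adjusted p rose to between 0.0544 and 0.159 without any 1 of the 6 libraries. Ier3 was -3.01 ± 0.68 (adjusted p = 0.0181), and its call was lost without BN1 1 (0.0737), BN1 2 (0.0655), AFFN1 1 (0.0555) or AFFN1 2 (0.0535). Both rest on few reads per library, and with any 1 of BN1 1, BN1 2, AFFN1 1 or AFFN1 2 left out neither was called. The member medians were 0.48 with all libraries and -0.11 without those numbered 3.

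Without the libraries numbered 3, 9 members were called between the fusions, beside 14.4% of all genes. Higher in BN1 were Egr2 (2.47, adjusted p = 0.0193) and Nr4a1 (1.22 ± 0.14, adjusted p = 0.000489). Lower in BN1 were Ier3 (-4.18 ± 0.51, adjusted p = 0.000601), Gadd45b (-0.85, adjusted p = 0.0335), Dusp2, Jund, Hspa8 (-0.47, adjusted p = 0.0101), Hsph1 and Hspa1b (-0.90, adjusted p = 0.0422). For Egr2, Nr4a1, Ier3, Hspa8 and Hsph1 the groups did not overlap with all 9 libraries either. The highest BN1 library of Hspa8, for example, was at 2216 CPM and the lowest AFFN1 library at 2849 CPM. For Gadd45b, Dusp2, Jund and Hspa1b the groups overlapped with all 9 libraries. Of the 38 tested members, 6 lay wholly higher and 4 wholly lower in BN1 than in AFFN1. Over all genes tested, 35.0% had groups that did not overlap in this comparison. The comparisons of BN1 and AFFN1 with control share the control libraries, so their values for a member are set side by side and not correlated.

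Other genes of the same pathways were counted from lists that hold none of the members, and are read against the shares over all genes, 17.4% for BN1 and 12.7% for AFFN1 with all libraries and 32.2% and 32.1% without those numbered 3. With all libraries, of 32 tested early response genes 5 were higher and 1 lower in BN1, among them Sgk1 (1.86, adjusted p = 0.00583), a kinase downstream of PI3K, and Socs3 (-1.26), a cytokine feedback inhibitor. In AFFN1, 4 were higher and none lower, led by Nfil3 (1.07), a basic leucine zipper factor. None of 28 other chaperones and heat shock factors was called in either fusion with all libraries. Without the libraries numbered 3, 17 of these 28 were lower in BN1 and 16 in AFFN1, none higher, with medians of -0.39 and -0.36. Hsp90ab1, the constitutive HSP90, stood at -0.64 (adjusted p = 0.00556) in BN1, and Hspa9, the mitochondrial HSP70, at -0.62 (adjusted p = 0.00375) in BN1 and -0.83 (adjusted p = 0.000926) in AFFN1. Of the early response genes, 15 were then higher and 4 lower in BN1, and 11 higher and 3 lower in AFFN1, with Sgk1 at 2.09 (adjusted p = 4.74e-06) and 1.42 (adjusted p = 6.8e-05). Of 12 tested endoplasmic reticulum stress genes, 3 were higher and 6 lower in BN1 in libraries 1 and 2, with Trib3, an inhibitor induced by ATF4, at 1.19 and Xbp1, the factor of the unfolded protein response, at -1.03, and 4 were lower in AFFN1.

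On day 14 no member was called in any of the 3 comparisons when the libraries were treated as independent. Over all genes, 0.0257% were called for BN1 against control, 0.0429% for AFFN1 against control and 0% for BN1 against AFFN1. At an unadjusted p under 0.05, edgeR gave 12, 1 and 2 members, and DESeq2 called 4, 0 and 0 at its adjusted p. The shares over all genes at these thresholds are not given here, so these counts are not a result about the members. The 4 called by DESeq2 were Jun (1.00, adjusted p = 0.0339), Zfp36l1 (0.66, adjusted p = 0.00646) and Rhob (0.92, adjusted p = 0.0205) higher and Hspe1 (-0.77, adjusted p = 0.00556) lower in BN1. Libraries of the same number deviated together on this day in all 9 pairs, so the fit with the number as a block is given too. With the block, 9 of 37 members were called for BN1 against control, beside 11.6% of all genes, with 5 higher and 4 lower.

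The 5 higher members were Jun, Dusp6, Zfp36l1, Rhob and Txnip. Jun had 79.3, 74.0 and 119 CPM in control, 180, 149 and 219 CPM in BN1 and 80.6, 86.8 and 178 CPM in AFFN1. Every BN1 library was above every control library, and the log2 fold change was 1.01 ± 0.15 (adjusted p = 0.00966) with the block and 0.99 ± 0.32 (adjusted p = 0.152) without it. Txnip read 100.3, 121 and 149 CPM in control, 191, 207 and 413 CPM in BN1 and 116, 164 and 353 CPM in AFFN1, with library 3 the highest in each group. Its value with the block was 1.02 ± 0.18 (adjusted p = 0.0137). Rhob, at 17.0, 14.1 and 18.2 CPM in control and 33.6, 33.8 and 26.0 CPM in BN1, rose by 0.93 ± 0.23 (adjusted p = 0.0373). Zfp36l1, at 313, 289 and 247 CPM in control and 492, 468 and 387 CPM in BN1, rose by 0.65 ± 0.14 (adjusted p = 0.021); in both genes the groups did not overlap. Dusp6, at 7.44, 29.1 and 9.69 CPM in control and 30.7, 43.5 and 23.9 CPM in BN1, overlapped between groups but was higher in BN1 within each number (1.31 ± 0.32, adjusted p = 0.0428).

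The 4 lower members were Dusp5, Hsp90aa1, Hspd1 and Hspe1. Dusp5 had 453, 278 and 292 CPM in control, 276, 165 and 257 CPM in BN1 and 288, 188 and 261 CPM in AFFN1. BN1 was lower within each number, and every BN1 library lay just below every control library (-0.57 ± 0.13, adjusted p = 0.0242 with the block). Hsp90aa1 read 1080.2, 689 and 904 CPM in control, 546, 409 and 621 CPM in BN1 and 1004, 586 and 577 CPM in AFFN1. Its groups did not overlap between BN1 and control (-0.77 ± 0.17, adjusted p = 0.022). Hspd1, at 434, 245 and 247 CPM in control and 165, 115 and 195 CPM in BN1, fell by 0.92 ± 0.24 (adjusted p = 0.0476), and Hspe1, at 97.3, 66.1 and 76.1 CPM and 51.1, 40.5 and 49.5 CPM, fell by 0.77 ± 0.11 (adjusted p = 0.00953). All 4 thus held lower values in each of the 3 BN1 libraries than in any control library, and over all genes 28.1% had groups that did not overlap in this comparison.

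The count with the block depends on single numbers. Without the libraries numbered 1 it was 8 members, without those numbered 3 it was 12 of 36, and without those numbered 2 it was 0, where 143 genes remained called over all genes. The genes called over all genes in the other fits are counted in the closing section, without their shares. The 8 and 12 are thus not a result about the members. Nr4a1 was among the 8, as lower in BN1, and Klf2 among the 12, as higher. Fos and Hspa1a, both high in BN1 library 3 of day 6, were not called on day 14: Fos had 11.2, 18.1 and 10.5 CPM in control and 16.1, 28.2 and 11.9 CPM in BN1, and Hspa1a had 0.544, 1.04 and 1.39 CPM and 1.76, 2.88 and 1.98 CPM. The groups of Fos overlapped and those of Hspa1a did not. Egr1, at 6.77, 11.6 and 9.09 CPM in control and 14.8, 13.5 and 16.4 CPM in BN1, and Nr4a1, at 73.7, 119 and 92.2 CPM and 65.6, 63.8 and 56.2 CPM, also had groups that did not overlap but no call with all 9 libraries. Of the 37 tested members, 9 lay wholly higher and 6 wholly lower in BN1 than in control, beside 28.1% of all genes without overlap.

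**Figure D4:**
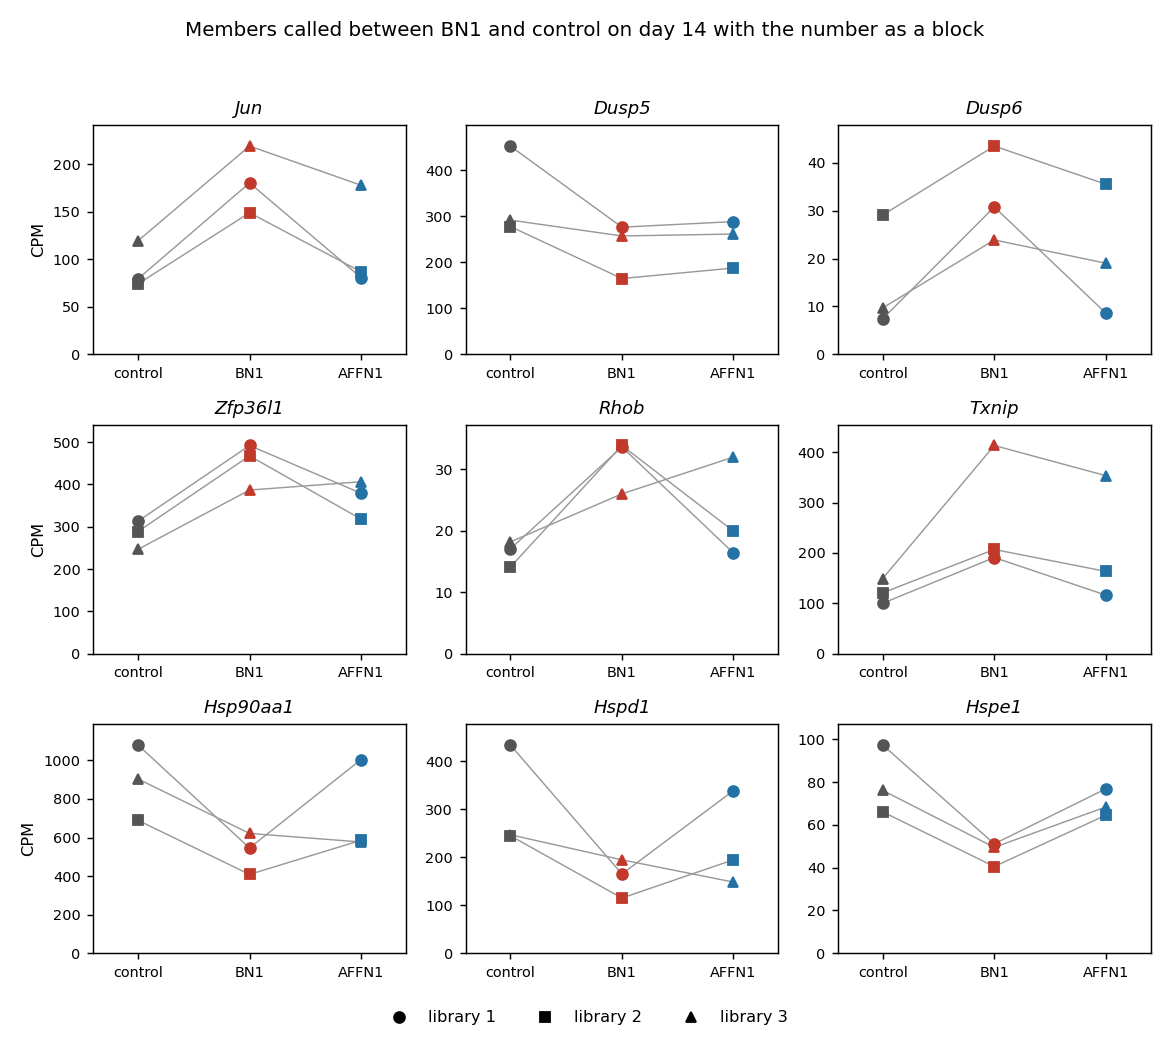
The 9 members called for BN1 against control on day 14 with the library number as a block, in CPM from 0, for control, BN1 and AFFN1, with lines joining libraries of the same number. For each of the 9 genes the BN1 point lies on the same side of the control point in all 3 numbers, as for Jun (79.3 to 180, 74.0 to 149 and 119 to 219 CPM).

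For AFFN1 against control on day 14, none of the members was called with the block either, beside 0.558% of all genes, and 4 had an unadjusted p under 0.05. Txnip stood at 0.61 (adjusted p = 0.201), and it was the 1 member called without the libraries numbered 1. Between BN1 and AFFN1 none was called with the block, beside 0.18% of all genes, and 8 had an unadjusted p under 0.05, with Jun at 0.74 (adjusted p = 0.0707) and Hspe1 at -0.58 (adjusted p = 0.0621). Shares over all genes at an unadjusted p under 0.05 are not given here. The counts of 4 and 8 are thus not a result about the members. In the other lists with the block, 9 of 28 other chaperones were lower and none higher in BN1 against control, beside 11.6% of all genes in either direction, led by Ptges3, a co-chaperone of HSP90, and Hspa9, both at -0.73. Of 32 other early response genes 7 were higher and none lower, with the KLF family member Klf10 at 1.09, Btg2, an antiproliferative p53 target, at 0.98 and Tnfaip3, an NF-kappaB inhibitor, at 0.77.

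The BN1 calls of the 2 days were then set side by side, as the 2 comparisons share no library. Of the 9 members called on day 14 with the block, 8 (88.9%) had been called in the same direction on day 6 without the libraries numbered 3, which is 50% of the 16 called there. The exception was Dusp6. With all day 6 libraries 1 of the 9 (11.1%), Dusp5, had been called in the same direction, which is 50% of the 2 called there. Over all genes, 751 of 1348 called on day 14 (55.7%) were called in the same direction on day 6, which is 19.3% of 3890, and 55 were called in the opposite direction. With all day 6 libraries these were 303 genes (22.5% of 1348 and 14.5% of 2095), and 54 in the opposite direction. The members called on day 14 and in libraries 1 and 2 of day 6 were Jun, Zfp36l1, Rhob and Txnip, higher, and Dusp5, Hsp90aa1, Hspd1 and Hspe1, lower.

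Between the days, 9 of 38 members differed in control cells, beside 43.9% of all genes. On day 14, Hspa8 (0.63 ± 0.14, adjusted p = 0.00193), Zfp36l1 (0.78 ± 0.22, adjusted p = 0.00942) and the HSP40 gene Dnajb1 (0.40 ± 0.12, adjusted p = 0.0115) were higher. Hspa8 stood at 4400.0, 3389 and 3857 CPM, above its 3 day 6 control libraries. Fos, Rhob, Dusp6, Dusp2, Hsph1 and Hspe1 were lower on day 14, Fos by 1.71 ± 0.59 (adjusted p = 0.0297) and Dusp2, a nuclear phosphatase of activated lymphocytes, by 0.82 ± 0.21 (adjusted p = 0.00458). The calls of Fos, Dusp6 and Rhob were lost without control library 3 of day 6, at 0.0776, 0.178 and 0.123. Fos was also lost without control 2 of day 6 or control 1 or 3 of day 14 (up to 0.0941), Dusp6 without control 1 of day 6 or control 1 or 3 of day 14, and Rhob without control 1 or 2 of day 14. Hsph1 was lost without control 1 or 2 of day 6 or control 2 or 3 of day 14 (up to 0.150), and Hspe1 without control 2 of either day (0.0857 and 0.0577). With the number as a block 5 members were called, and without all libraries numbered 3 there were 16, among them Nr4a1 (1.31, adjusted p = 0.00491) and Jun (-1.02, adjusted p = 0.000849). The shares over all genes in these fits are not given here, so the counts are not a result about the members. As day and experiment coincide, the differences between days are differences between the 2 sets of libraries.

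Whether a fusion acted on a member differently on the 2 days was tested as an interaction. No member was called for BN1, beside 2.97% of all genes, or for AFFN1, beside 1.46%, by edgeR or DESeq2 or with the block, and 0 and 1 had an unadjusted p under 0.05. The shares over all genes at that unadjusted threshold are not given here. The difference of the BN1 effect (day 14 minus day 6) was 0.76 ± 0.42 for Dusp5 (adjusted p = 0.495), 0.57 for Txnip (adjusted p = 0.706) and 0.09 for Jun (adjusted p = 0.982). For Hspa1a the difference of the AFFN1 effect was 4.13 ± 1.96 (adjusted p = 0.529), in a gene whose day 6 control value rests on library 3.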

How the data were processed

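The authors deposited expected counts per gene, made with STAR and RSEM on mm10 (DESeq2 is also listed), per the submitters' processing notes. The sources used here do not give versions, annotation or strand setting. Values were rounded, since 1.74 to 2.12% per library were not whole. Of 32285 gene identifiers, 32158 (99.6%) were found in GENCODE M21, the source of coordinates and exon lengths.

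Tests used R 4.3.3 and edgeR 4.0.16: filterByExpr with a minimum count of 10, TMM scaling, robust quasi-likelihood fits on the 9 libraries of a day or on all 18 across days, and Benjamini-Hochberg adjustment over all genes tested. Calls needed an adjusted p under 0.05. The fits of each day without a block were also run on simulated counts, drawn independently for each library. That simulation held no deviation shared by number and no library running high, so it cannot speak to either. Alternatives were DESeq2 1.42.0 (two-sided Wald test), DESeq2-style RLE scaling, no filter, the replicate number as a block, leaving out each library, and leaving out the libraries numbered 3. Leaving out control 3 and BN1 3 of day 6 alone, and the block without a number, were added after seeing the data.

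Equal numbers were checked as pairs from the correlation of deviations from group means. On day 14 the 9 same-number pairs correlated at 0.309 to 0.662 and other pairs at -0.539 to 0.0313, and the descriptions share a code per number. On day 6 control and BN1 pairs correlated at 0.185 to 0.373 but AFFN1 pairs at -0.376 to 0.247, so the numbers were not taken as pairs over all 3 groups, and a block fit of control and BN1 alone was added after seeing the data.

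Members and lists were chosen with earlier results of these data known. Values per library are given for members called in a within-day comparison (the 15 with the largest change), and for Fos, Jun, Egr1, Nr4a1, Dusp1, Hspa1a, Hspa8 and Hsp90aa1. The other lists name up to 3 called genes each.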

Additional observations from a re-analysis of the deposited data

How the results depend on the processing

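On day 6, leaving out all libraries numbered 3 gave values of the opposite sign for Jund (-0.34) and Klf2 (-1.59) in BN1 against control and for Jund (-0.39) and Hspa1b (-0.90) in BN1 against AFFN1. Leaving out only control 3 and BN1 3 gave -1.58 for Klf2 in the first and -0.52 for Jund and -0.98 for Hspa1b in the second. With each library left out in turn, the first comparison ranged from -0.53 to 0.90 for Jund and from -1.87 to 0.98 for Klf2, and the second from -0.52 to 0.92 for Jund and from -0.98 to 2.06 for Hspa1b. The cause was not tested.

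For BN1 against control on day 6, the members called, 2 as reported, numbered 1 with no filter, 5 with DESeq2, 16 without the libraries numbered 3, 14 without control 3 and BN1 3, 12 with the replicate block on the control and BN1 libraries alone and 0 to 9 with each library left out in turn, and the genes called over all genes 3890 without the libraries numbered 3 and 1141 to 3495 with each left out. For AFFN1 against control, 1 member as reported became 0 with RLE scaling, 0 with no filter, 3 with DESeq2, 3 with the replicate block, 13 without the libraries numbered 3, 8 without control 3 and BN1 3 and 0 to 2 with each left out, and the genes called became 3873 without the libraries numbered 3, 2352 without control 3 and BN1 3 and 739 to 2250 with each left out. For BN1 against AFFN1, 2 members became 4 with DESeq2, 9 without the libraries numbered 3, 12 without control 3 and BN1 3 and 0 to 2 with each left out, with 1741 genes called without the libraries numbered 3 and 725 to 1047 with each left out. The replicate block on all day 6 libraries gave 3 members in each of the 3 comparisons. For this block, RLE scaling, no filter and DESeq2 on day 6 the shares over all genes are not given here. The same holds for the 14 and 12 members without control 3 and BN1 3. These counts are thus not a result about the members.

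On day 14, members for BN1 against control, 0 as reported, numbered 4 with DESeq2, 9 with the replicate block, 8 with the block without number 1, 12 with the block without number 3 and 0 to 0 with each left out. The 3 genes called over all genes became 5 with RLE scaling, 17 with no filter, 646 with DESeq2, 1348 with the block, 594, 143 and 684 with the block without number 1, 2 and 3, 1 without the libraries numbered 3 and 1 to 5 with each left out. For AFFN1 against control, 1 member was called with the block without number 1, and the 5 genes became 25 with no filter, 76 with DESeq2, 65 with the block, 263, 25 and 1 with the block without number 1, 2 and 3, 0 without the libraries numbered 3 and 0 to 9 with each left out. For BN1 against AFFN1, the 0 genes became 5 with no filter, 91 with DESeq2, 21 with the block and 124 and 5 with the block without number 1 and 2, and stayed at 0 with each left out.

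Between control days, 9 members became 5 with the block, 16 without the libraries numbered 3 and 6 to 10 with each left out, with 4749 to 5277 genes called. For the change of the BN1 effect, the 373 genes became 600 with DESeq2, 649 with the block, 166 without the libraries numbered 3 and 267 to 381 with each left out, and for AFFN1 the 183 genes became 333, 319, 53 and 110 to 214. Leaving out the libraries numbered 3 leaves 2 per group, in AFFN1 the 2 most alike libraries of the series, which bears on the spread in that fit. Of the members' fold changes under the alternatives, 592 kept their direction and side of the threshold, 125 newly passed it, 53 no longer did, 18 changed sign with no call under either setting and 8 changed sign with a call under 1 of them. Genes with few reads, such as Egr2 and Ier3 on day 6, are limited by depth.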
